A study of Mus musculus with 12 samples.

Results

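The genes described here encode proteins of the mitochondrial ribosome (Mrpl, large subunit; Mrps, small subunit) in mouse skeletal muscle. They were chosen by name, as the protein-coding genes whose symbol starts with Mrpl or Mrps followed by a digit, and the rule uses no expression value. Of the 34866 gene IDs in the expression tables, 78 met the rule. The large subunit holds 51 of them and the small subunit 26, with Mrps18a and Mrps30 counted in the large subunit despite their names. Mrps36 encodes a subunit of the 2-oxoglutarate dehydrogenase complex of the citric acid cycle and belongs to neither. A further 5 rows with such a symbol are pseudogenes or other non-coding genes and were left out.

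The mitochondrial ribosome translates the mRNAs of the mitochondrial genome, which encode core subunits of the respiratory chain and ATP synthase. Its rRNAs come from mitochondrial DNA, whereas its proteins are encoded in the nucleus, made in the cytosol and imported. Many of these proteins descend from those of bacterial ribosomes, and others were added in mitochondria. Skeletal muscle, and slow oxidative muscle above all, depends on the respiratory chain for sustained work.

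RNA was sequenced from gastrocnemius, a mostly fast-twitch calf muscle, and soleus, a slow-twitch postural muscle, of male C57BL/6 mice aged 4 weeks. Knockout animals (KO) were Phf2 flox/flox with an Acta1 Cre transgene, and control animals (Ctrl) were Phf2 flox/flox without Cre, so both genotypes carry the floxed alleles. The Acta1 promoter is active in skeletal muscle fibres, so blood vessels, fat and connective tissue in the same piece of muscle keep Phf2. PHF2 is a Jumonji-family protein that binds methylated histone tails. Each of the 4 groups held 3 libraries. Values are TPM, a transcript abundance corrected for transcript length with each library scaled to the same sum, and the read depth behind each value is unknown. In such bulk samples fewer cells of a type and less RNA per cell cannot be told apart.

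Several properties of the libraries touch the results. Phf2 was at 9.87 ± 1.57 TPM in gastrocnemius Ctrl, against 7.12 ± 0.445 TPM in KO (mean ± SD, n = 3), and in soleus at 13.0 ± 2.64 TPM in Ctrl, against 7.99 ± 1.14 TPM in KO. The exact two-sided permutation p was 0.1 in both muscles, the smallest that 3 against 3 allows, and the limma adjusted p was 0.0601 in gastrocnemius and 0.326 in soleus. Fibre markers such as Acta1 and Ckm were abundant in every library. Mitochondrially encoded transcripts took 23.3% of the summed TPM of gastrocnemius Ctrl, against 19.7% in KO, and 27.1% of that of soleus Ctrl, against 31.1% in KO. The slope of a library's log2 deviations on GC content was between -1.27 and -0.56 in gastrocnemius Ctrl and between 0.53 and 1.15 in gastrocnemius KO, so it separated the genotypes there. Soleus KO 3 stood apart, with a slope of -2.90 against 0.25 to 1.02 in the other 5 soleus libraries and with 39.0% mitochondrially encoded TPM.

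All 78 genes were expressed in every library, from 4.37 TPM to 530.3 TPM, and the median of their means was 49.2 TPM. That places the median member at percentile 86.1 of the 12091 genes whose mean over 12 libraries reached 1 TPM. From the lowest to the highest member the mean levels spanned 49.6-fold. Most lay closer together, with 56 members between 20 and 80 TPM, and 12 exceeded 100 TPM. The large and small subunit members had median levels of 49.0 and 48.4 TPM. The 45 members with a homologue in bacterial ribosomes had a median level of 49.8 TPM and the 29 without such a homologue 39.0 TPM. The other 4 were not classed.

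The highest transcript was that of Mrpl42, a large-subunit protein without a bacterial counterpart, with a mean of 478 TPM and a range of 384 to 530.3 TPM. Mrps21, a small-subunit protein, followed with 333 TPM and Mrpl33, a short protein of the large subunit, with 293 TPM. Together these 3 genes made up 21.6% of the summed level of all members. Next came Mrpl30 at 173 TPM, Mrps23 at 133 TPM and Mrps36 at 129 TPM. Over the 12 libraries neighbours in this order overlap, except that the lowest value of Mrpl33 (221 TPM) lies above the highest of Mrpl30 (204 TPM). At the other end stood Mrpl39 at 15.4 TPM, Mrps2 at 14.3 TPM, Mrpl1, a protein of the mobile stalk next to the tRNA exit site, at 12.6 TPM, Mrps30 at 11.4 TPM, Mrpl19 at 10.1 TPM and Mrpl23 at 9.65 TPM. Neighbours among these 6 overlap too.

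**Figure D1:**
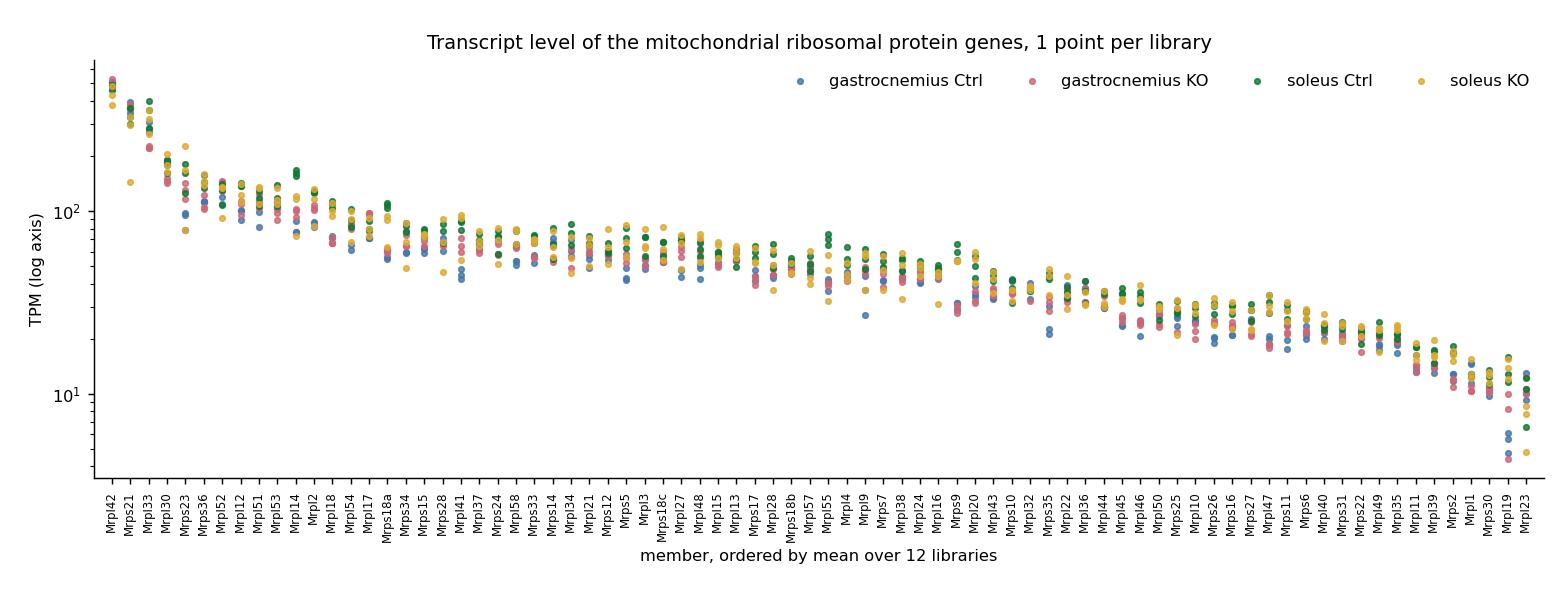
TPM on a log axis for each of the 78 genes, ordered by the mean over 12 libraries, with 1 point per library coloured by muscle and genotype. Mrpl42, Mrps21 and Mrpl33 stand above the rest, 56 genes lie between 20 and 80 TPM, and the low end is formed by Mrpl19 and Mrpl23.

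Replicates lay close together for most members. The median coefficient of variation among the members was 5.61% in gastrocnemius Ctrl, 5.43% in gastrocnemius KO and 8.35% in soleus Ctrl. It was 12.9% in soleus KO, where KO 3 gave the lowest of the 6 soleus values for 47 members and the highest for 7. The deviations of the members in soleus KO 3 had an SD of 0.263 on the log2 scale, against 0.102 to 0.140 in the other libraries. Across the 78 members the Ctrl levels of both muscles gave a Pearson r of 0.965 on the log2 scale, a description over genes that share the same libraries.

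**Figure D2:**
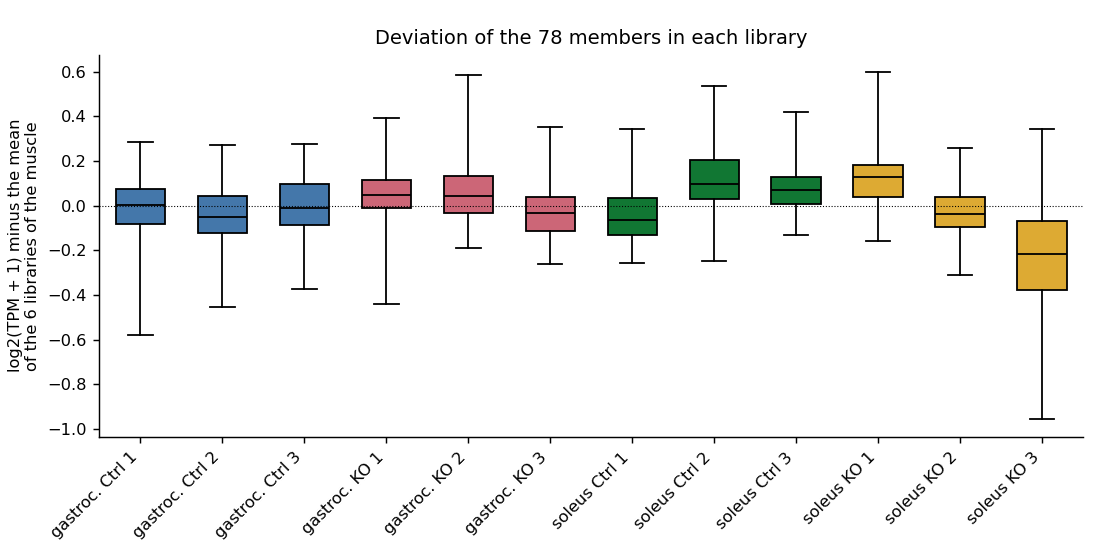
Deviation of the 78 genes in each library from the mean of the 6 libraries of the same muscle, as log2(TPM + 1). Boxes span the quartiles with the median as a line, and whiskers reach the lowest and highest gene. Soleus KO 3 lies lowest and is the widest of the 12 libraries.

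Promoter sequence was available for 69 of the 78 members (RefSeq, GRCm38.p6, from 250 bases before to 50 bases after the annotated start). The 3 motifs below, known from promoters of nuclear genes for mitochondrial proteins, were searched on both strands. These were GCGCA followed by any base and GCGC, bound by NRF1, CCGGAAG, the core bound by the ETS factor GABP, and AAGATGGC, bound by YY1; no occurrences of different motifs overlapped in these windows. The NRF1 motif stood in 13 member windows (18.8%), against 10.9% of windows of genes expressed at a mean of 1 TPM or more. The ETS motif stood in 25 (36.2%, against 18.7%) and the YY1 motif in 12 (17.4%, against 4.88%). At least 1 of them was present in 42 member windows, or 60.9%, against 30.5% of the expressed genes and 15.2% of all genes with a window.

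The 140 bases before the start are shown, 5′ to 3′ on the gene's strand, for some members of the results below. Only members with a motif in these bases are shown, with the motif on either strand in capitals. Mrpl2, Mrpl14, Mrpl33, Mrpl41, Mrpl48, Mrps10, Mrps14 and Mrps23, also called in gastrocnemius KO, held none of the motifs in these bases. Mrpl17 was called higher after knockout in gastrocnemius in each of 17 alternative settings, Mrpl27, Mrpl58 and Mrps26 were called there and between the muscles, Mrpl30 was called lower after knockout, and Mrpl45 and Mrps18a were among the largest differences between muscles. Mrps11, whose start in the GENCODE M21 annotation overlaps that of Mrpl46 head to head, stands for the YY1 motif. The bases shown are placed by the RefSeq starts, which do not overlap for this pair.
Mrpl17, chr7:105811088-105811227, minus strand: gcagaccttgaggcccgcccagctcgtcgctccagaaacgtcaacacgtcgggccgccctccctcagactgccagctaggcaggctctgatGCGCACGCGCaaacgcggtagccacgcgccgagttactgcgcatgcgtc
Mrpl30, chr1:37890337-37890476, plus strand: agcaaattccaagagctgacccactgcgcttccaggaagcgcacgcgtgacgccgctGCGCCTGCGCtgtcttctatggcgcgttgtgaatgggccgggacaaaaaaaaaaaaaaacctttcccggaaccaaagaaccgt
Mrpl45, chr11:97315576-97315715, plus strand: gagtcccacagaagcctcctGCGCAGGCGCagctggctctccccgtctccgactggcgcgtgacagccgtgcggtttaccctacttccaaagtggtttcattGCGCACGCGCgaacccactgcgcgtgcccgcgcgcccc
Mrpl27, chr11:94653651-94653790, plus strand: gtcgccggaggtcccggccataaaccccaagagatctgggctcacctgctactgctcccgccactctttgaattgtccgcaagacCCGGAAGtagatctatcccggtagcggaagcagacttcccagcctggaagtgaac
Mrpl58, chr11:115403612-115403751, plus strand: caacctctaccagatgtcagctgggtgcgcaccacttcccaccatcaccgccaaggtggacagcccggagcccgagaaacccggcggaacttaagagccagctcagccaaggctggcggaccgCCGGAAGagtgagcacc
Mrps26, chr2:130563617-130563756, plus strand: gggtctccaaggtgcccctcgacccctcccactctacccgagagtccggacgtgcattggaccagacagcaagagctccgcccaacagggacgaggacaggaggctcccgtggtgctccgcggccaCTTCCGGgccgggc
Mrps18a, chr17:46110864-46111003, plus strand: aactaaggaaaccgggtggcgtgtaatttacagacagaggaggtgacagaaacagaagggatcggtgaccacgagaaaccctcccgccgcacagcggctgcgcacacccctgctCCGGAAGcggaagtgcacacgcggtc
Mrps11, chr7:78782991-78783130, plus strand: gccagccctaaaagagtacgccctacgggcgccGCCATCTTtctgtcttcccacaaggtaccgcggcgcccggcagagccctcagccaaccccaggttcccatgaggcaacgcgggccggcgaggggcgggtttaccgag

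In these lines the NRF1 motif is in capitals in Mrpl17 and Mrpl30 and stands at a pair of places in Mrpl45. Capitals mark the ETS motif in Mrpl27, Mrpl58, Mrps26 and Mrps18a and the YY1 motif, read on the opposite strand, in Mrps11. Mrpl17, which rose after knockout, and Mrpl30, which fell, both hold the NRF1 letters. Among members higher in Ctrl soleus (below) 54.3% of 35 windows held at least 1 of the motifs, and among those not called between muscles 67.6% of 34. A match describes the letters only, and binding was not measured.

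The first comparison asked how mitochondrial ribosomal protein transcripts stand in gastrocnemius when Phf2 is deleted in its fibres. Of the 78 members 9 rose, 4 fell and 65 did not pass (limma on log2(TPM + 1), Benjamini-Hochberg adjusted p under 0.05 over 11911 genes). The shares of 11.5% up and 5.13% down stand beside 9.32% up and 4.99% down over all tested genes, so the count of members is near the background. The median member differed by 0.04 and the median of all genes by 0.03 on the log2 scale. Groups did not overlap for 17 members higher and 13 lower in KO, or 21.8% and 16.7%, against 22.2% and 15.5% of all genes. The summed level of the members was 4709 ± 142 TPM in Ctrl and 4827 ± 161 TPM in KO.

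Mrpl17, a large-subunit protein of bacterial descent (chr7:105803206-105811099, mm10), was the most stable of the rises. It was at 71.6, 71.7 and 71.2 TPM in gastrocnemius Ctrl 1 to 3, against 98.2, 98.3 and 95.3 TPM in KO 1 to 3. The 3 Ctrl values are nearly equal, and every KO value lies well above them. The log2 difference was 0.44 (SE 0.0539, adjusted p = 0.00641, limma). Mrpl17 is the only one of the 13 called members that was also called in each of 17 alternative settings, 6 of which leave out a library.

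Mrpl41, a large-subunit protein without a bacterial counterpart (chr2:24974117-24975098), had the largest rise. Its level was 44.7, 42.3 and 48.4 TPM in Ctrl, against 59.7, 71.4 and 64.6 TPM in KO, a log2 difference of 0.52 (SE 0.0877, adjusted p = 0.0130, limma). Mrps23, a small-subunit protein found only in mitochondria (chr11:88204388-88211507), was at 95.8, 78.5 and 97.5 TPM in Ctrl, against 142, 116 and 131 TPM in KO (0.51, SE 0.110, adjusted p = 0.0260). In both genes every KO library exceeded every Ctrl library, and the replicates spread more than those of Mrpl17. Mrpl27, whose bacterial homologue reaches into the peptidyl transferase centre (chr11:94653767-94660089), was at 43.3, 47.3 and 47.7 TPM in Ctrl, against 63.2, 60.3 and 56.0 TPM in KO (0.37, SE 0.0738, adjusted p = 0.0214).

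The remaining rises lay between 0.29 and 0.37 on the log2 scale. Mrpl58, a peptidyl-tRNA hydrolase built into the large subunit that can free stalled chains, rose from 52.4 ± 1.64 to 64.2 ± 1.29 TPM (adjusted p = 0.0223, limma). Mrpl2, a protein of the peptidyl transferase centre, rose from 85.2 ± 2.98 to 105 ± 3.18 TPM and Mrps26, a small-subunit protein, from 19.9 ± 0.795 to 24.8 ± 0.550 TPM. Nearest to the threshold were Mrpl14, a large-subunit protein of bacterial descent, with 80.6 ± 6.26 and 98.8 ± 5.04 TPM (adjusted p = 0.0482), and Mrpl48 of the central protuberance of the large subunit, with 47.3 ± 4.11 and 61.5 ± 6.32 TPM (adjusted p = 0.0495).

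All 4 falls were in genes of bacterial descent. Mrpl33 (chr5:31596935-31664384) was at 282, 269.6 and 306 TPM in Ctrl, against 222, 227 and 221 TPM in KO, a log2 difference of -0.35 (SE 0.0650, adjusted p = 0.0168, limma). Mrpl30 (chr1:37890477-37898535) was at 189.8, 186 and 179 TPM in Ctrl, against 153, 146 and 142 TPM in KO (-0.33, SE 0.0593, adjusted p = 0.0157). In both, every KO value lay below every Ctrl value. Mrps14, a protein of the head of the small subunit, fell from 67.9 ± 3.68 to 54.2 ± 1.39 TPM (adjusted p = 0.0226) and Mrps10, also of the head, from 41.8 ± 0.588 to 35.7 ± 0.503 TPM (adjusted p = 0.0449). Mrpl33 and Mrpl30 are also among the 6 highest members by level.

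By position in the ribosome, 7 large-subunit members rose and 2 fell of 51, and 2 small-subunit members rose and 2 fell of 26. By descent, 4 of the 45 members with a homologue in bacterial ribosomes rose and 4 fell. Of the 29 without such a homologue 5 rose and 0 fell. Over all tested genes 9.32% rose and 4.99% fell. The split by descent did not hold in all settings. After the correction for GC content and length (below) none of these 5 was called, and Mrpl53, of the same class, was called lower. Mrps27, also of that class, was called lower after rescaling without mitochondrially encoded transcripts. Among members with particular roles, Mrpl12, the stalk protein that recruits translation factors, was at 97.0 ± 6.72 TPM in Ctrl, against 106 ± 9.69 TPM in KO (adjusted p = 0.375, limma). Mrps12 of the decoding centre was at 56.7 ± 2.40 and 58.6 ± 2.05 TPM (adjusted p = 0.664). For comparison, the proteins of the cytosolic ribosome had 31 genes higher and 1 lower of 83 tested, against 9.32% and 4.99% of all genes. Their median was 0.27, against 0.03 over all genes. Their counts under the alternative settings are not given here.

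The calls moved with the processing, with Mrpl17 as the exception. After a correction for GC content and transcript length, added after the slopes on GC were seen, 1 member was higher (Mrpl17) and 10 were lower, and 4 of the 13 calls remained; 5.48% of all genes were then higher and 4.68% lower. Among the other rises Mrpl41 came to 0.31 (adjusted p = 0.0589, limma), Mrps23 to 0.40 (adjusted p = 0.0585) and Mrpl14 to 0.02 (adjusted p = 0.844). Rescaled without the mitochondrially encoded transcripts, which took 23.3% of TPM in Ctrl and 19.7% in KO, 4 members were higher and 6 lower, near the 6.37% and 6.81% of all genes. With 1 spread estimated over all 12 libraries Mrpl17 alone was called. Single libraries also decided calls, among the members as among all genes. Without Ctrl 1, 1 member rose and 0 fell (3.34% and 1.38% of all genes), without Ctrl 2, 2 rose and 2 fell (4.6% and 1.96%), and without Ctrl 3, 11 rose and 4 fell (8.04% and 5.33%). Without KO 1, 5 rose and 2 fell (6.02% and 3.22%), without KO 2, 3 rose and 0 fell (3.22% and 1.39%), and without KO 3 likewise 3 and 0 (4.92% and 1.97%).

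**Figure D3:**
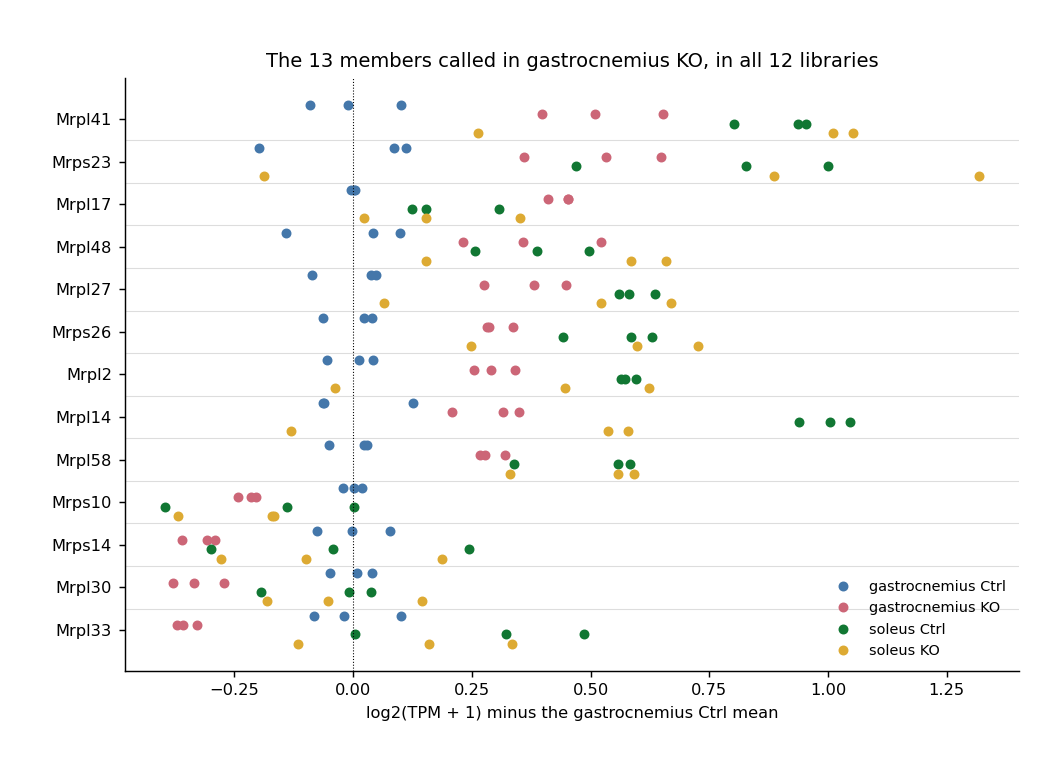
The 13 genes called in gastrocnemius KO, as log2(TPM + 1) minus the mean of gastrocnemius Ctrl, with 1 point per library in all 4 groups. The 3 KO libraries of gastrocnemius lie apart from the 3 Ctrl libraries in each gene, and in soleus KO and Ctrl overlap in each gene but Mrpl14.

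In soleus the same question gave no call among the members. With limma 0 of 78 passed and 3 had an unadjusted p under 0.05. Of all 12148 genes tested 9 (0.0741%) passed, 0.0165% higher and 0.0576% lower, so few genes of any kind were called there. The median member differed by -0.07 and all genes by -0.02, and without soleus KO 3 these medians were 0.01 and 0.04. The summed level was 5678 ± 297 TPM in Ctrl and 5248 ± 706 TPM in KO. Groups did not overlap for 1 member higher and 6 lower, against 8.90% and 7.94% of all genes.

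The 5 members of smallest p were all lower in KO, and none passed. Mrpl14 was at 162, 167 and 155 TPM in soleus Ctrl, against 121, 117 and 73.4 TPM in KO, a log2 difference of -0.67 (95% interval -1.13 to -0.21, adjusted p = 0.365, limma). Mrpl55, a large-subunit protein, was at 70.7, 65.3 and 75.3 TPM in Ctrl, against 57.4, 47.6 and 32.3 TPM in KO (-0.65, interval -1.12 to -0.17, adjusted p = 0.392). Both genes had every KO library below every Ctrl library, and KO 3 was the lowest of the 6. The others were Mrps18a at -0.40 (adjusted p = 0.531), Mrpl34 at -0.40 (adjusted p = 0.584) and Mrpl4, which lines the exit tunnel, at -0.28 (adjusted p = 0.612).

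The members called in gastrocnemius did not pass in soleus. Of the 9 rises there, 8 had a soleus log2 difference below 0, as had 3 of the 4 falls and 55 of all 78 members. Without soleus KO 3 these counts were 2, 3 and 34. Mrpl2 and Mrpl14 were the rises still below 0, and for the rest of the 8 the sign depended on that library. Mrpl17 was at 78.1, 88.7 and 79.6 TPM in soleus Ctrl, against 91.5, 79.6 and 72.6 TPM in KO, with overlapping groups and an interval of -0.32 to 0.28 on the log2 scale. Mrps23 was at 161, 125 and 181 TPM in Ctrl, against 226, 168 and 79.0 TPM in KO, so that KO 1 was the highest and KO 3 the lowest of the 6 libraries. The wide spread in soleus KO leaves intervals as broad as -0.93 to 0.75 for Mrps23.

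Whether the knockout effect differed between muscles was tested directly, as the soleus effect minus the gastrocnemius effect in a fit of all 12 libraries. Of the 78 members 0 passed and 9 had an unadjusted p under 0.05 (limma). Of all 12091 genes 33 passed (0.273%), 0.157% above 0 and 0.116% below. The median member was at -0.13 and all genes at -0.06 on the log2 scale. Mrpl14 came nearest, with a difference of -0.96 (SE 0.224, interval -1.45 to -0.47, adjusted p = 0.0903). It was followed by Mrpl17 at -0.46 (adjusted p = 0.122), Mrpl27 at -0.54 (adjusted p = 0.164), Mrpl55 at -0.64 (adjusted p = 0.174) and Mrpl2 at -0.53 (adjusted p = 0.176). With array weights, without soleus KO 2 or without soleus KO 3, Mrpl14 was called (-0.81, -1.06 and -0.73).

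**Figure D4:**
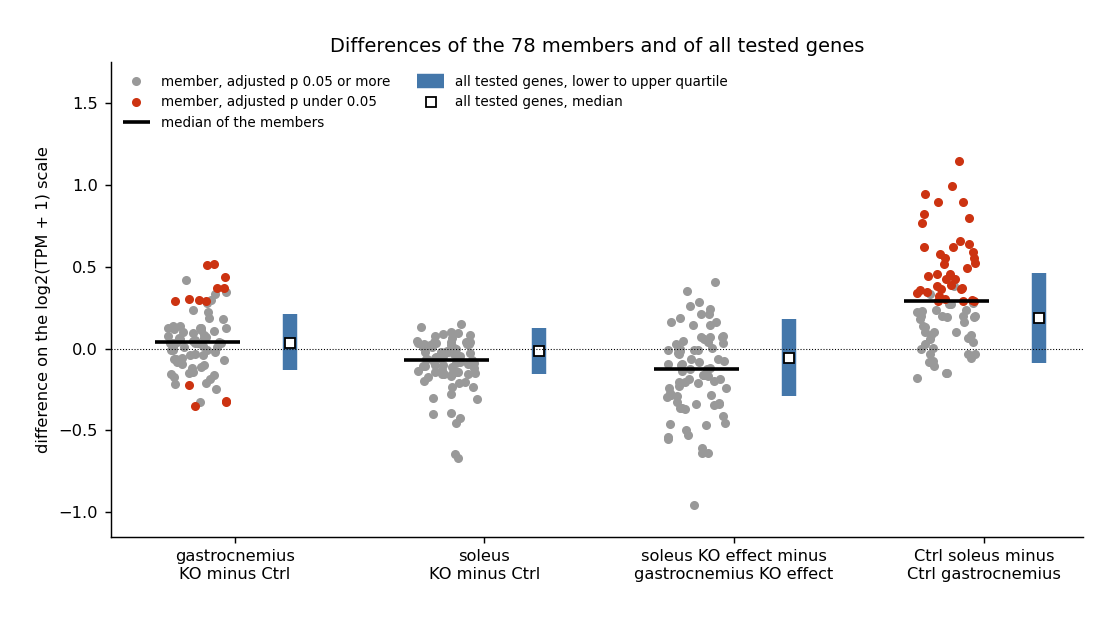
Differences on the log2(TPM + 1) scale in the 4 comparisons, with 1 point per gene, red where the limma adjusted p is under 0.05, and a black line at the median of the 78 genes. Blue bars span the lower to upper quartile of all tested genes with their median as a square. Red points occur only in the first and the last comparison, where the genes' medians are 0.04 and 0.29.

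The comparison of soleus with gastrocnemius in Ctrl mice shows how the members differ between a slow and a mostly fast muscle. In Ctrl soleus 38 members (48.7%) were higher, 0 were lower and 40 did not pass, against 31.4% higher and 10.2% lower of 12048 genes (limma). Each library was scaled to the same sum on its own, and the muscles stand in separate tables. The median member was higher by 0.29 and the median gene by 0.19 on the log2 scale. Groups did not overlap for 48 members higher and 1 lower (Mrpl42), against 39.8% and 14.4% of all genes. By subunit 24 large-subunit members (47.1%) and 13 small-subunit members (50%) were higher.

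Centred on the genes as a whole by median-ratio scaling, 17 members were higher and 3 lower, or 21.8% and 3.85%, against 19.6% and 18.7% of all genes. The share higher was then near the background. The 3 lower members were Mrpl42, Mrps10 and Mrps21, and the median member was at 0.09 with all genes at 0.01. The correction for GC content and length gave 17 higher and 2 lower (Mrps21 and Mrps24), against 18.5% and 18.8% of all genes. Rescaled without mitochondrially encoded transcripts, 51 were higher and 0 lower, against 37.8% and 8.86% of all genes. Without gastrocnemius Ctrl 2 the count of higher members was 25, with 25.8% of all genes higher. Of the 15 largest rises, 13 were called in each of 17 alternative settings, but not Mrpl9, nor Mrps23, which was lost with 1 spread estimated over all 12 libraries (adjusted p = 0.0599, limma).

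The largest differences were in Mrpl19, Mrpl14 and Mrps9. Mrpl19, a large-subunit protein at the interface between the subunits (chr6:81957851-81965958), was at 5.66, 6.12 and 4.75 TPM in gastrocnemius Ctrl, against 12.8, 11.5 and 16.0 TPM in soleus Ctrl, a log2 difference of 1.14 (SE 0.141, adjusted p = 0.000681, limma). Mrpl14 (chr17:45686322-45698495) was at 76.9, 77.1 and 87.9 TPM in gastrocnemius, against 162, 167 and 155 TPM in soleus (1.00, SE 0.0831, adjusted p = 0.000112). In both genes every soleus library lay far above every gastrocnemius library. Mrps9 (chr1:42851233-42905683) was at 31.4, 28.8 and 31.5 TPM in gastrocnemius, against 53.9, 65.9 and 60.0 TPM in soleus (0.95, SE 0.0962, adjusted p = 0.000280).

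In the large subunit Mrpl41 rose from 45.1 ± 3.08 TPM in gastrocnemius to 84.9 ± 4.88 TPM in soleus, and Mrps18a from 57.4 ± 3.65 to 108 ± 3.43 TPM. Mrpl55 stood at 40.0 ± 3.17 and 70.4 ± 4.99 TPM, and Mrpl47, near the exit of the tunnel, at 19.8 ± 0.904 and 31.5 ± 3.60 TPM. Mrpl18, of the central protuberance, was at 70.4 ± 3.28 and 109 ± 4.72 TPM and Mrpl45, which ties the ribosome to the inner membrane, at 24.4 ± 1.34 and 36.2 ± 1.55 TPM. Mrpl27 and Mrpl2 of the peptidyl transferase centre differed by 0.59 and 0.58 on the log2 scale. Adjusted p-values of these 8 genes by limma ran from 0.000141 (Mrps18a) to 0.00227 (Mrpl47). Mrpl9, at 27.1, 36.8 and 43.9 TPM in gastrocnemius, against 48.4, 55.0 and 61.7 TPM in soleus, was the least firm of the 15 (0.62, adjusted p = 0.0244), and its gastrocnemius values spread widely.

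In the small subunit Mrps35 was at 30.2, 22.7 and 21.1 TPM in gastrocnemius, against 45.9, 42.4 and 43.4 TPM in soleus (0.82, adjusted p = 0.00236, limma). Mrps23 differed by 0.77 (adjusted p = 0.00546), and Mrps5, near the mRNA entry, by 0.66 (adjusted p = 0.00293). Of the genes with particular roles, Mrpl12 was at 97.0 ± 6.72 TPM in gastrocnemius, against 139 ± 2.80 TPM in soleus (0.52, adjusted p = 0.00183), Mrpl58 differed by 0.49 (adjusted p = 0.00405) and Mrps36 by 0.36 (adjusted p = 0.0113). After the correction for GC content and length none of these 3 passed.

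Of the 3 paralogues of the bacterial protein S18 Mrps18a, in the large subunit, passed at 0.90, whereas Mrps18b and Mrps18c of the small subunit were at 0.10 (interval -0.07 to 0.27, adjusted p = 0.308, limma) and 0.23 (interval 0.01 to 0.45, adjusted p = 0.0846). The intervals of Mrps18b and Mrps18c end below the value of Mrps18a, but the genes were not tested against each other. Mrps12, Mrpl44, which resembles ribonuclease III, and Mrps30 did not pass, at 0.13, 0.18 and 0.23. Mrps18b, Mrps12 and Mrpl44 came out below 0 after median-ratio scaling and after the correction for GC content and length.

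**Figure D5:**
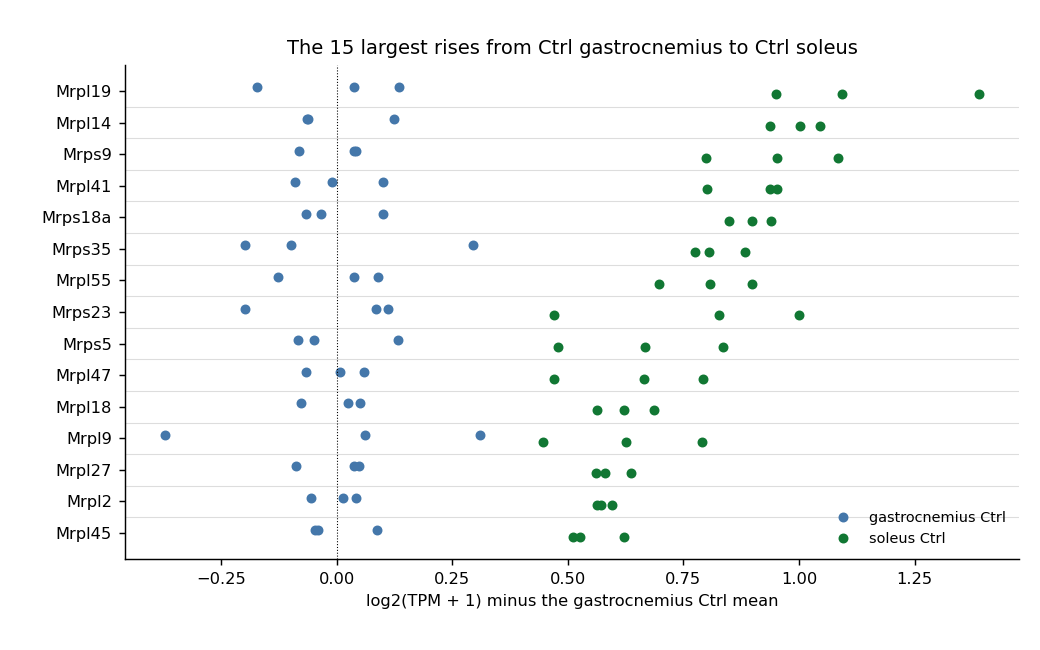
The 15 largest rises from Ctrl gastrocnemius to Ctrl soleus among genes whose groups do not overlap, as log2(TPM + 1) minus the gastrocnemius Ctrl mean, with 1 point per library. All 3 soleus libraries lie above all 3 gastrocnemius libraries in each gene, and Mrpl9 has the widest gastrocnemius spread.

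The same muscles differ in other cells. All 4 endothelial markers and all 4 adipocyte markers were higher in Ctrl soleus. The endothelial markers summed to 98.7 to 113 TPM in gastrocnemius Ctrl and 174 to 203 TPM in soleus Ctrl, and the adipocyte markers to 282 to 327 TPM and 666 to 838 TPM. Fibre markers summed to 110970 to 115130 TPM and 72608 to 82229 TPM, and no marker of any list was at 0 in all libraries. The 8 fibre markers went both ways, with 4 called higher and 3 lower in Ctrl soleus (limma). Among them Ckm had a mean of 32979 TPM in gastrocnemius Ctrl, against 11275 TPM in soleus Ctrl. In gastrocnemius KO the adipocyte markers summed to 391 to 577 TPM, with 1 of 4 called higher. The part of these cells in the members' values was not tested.

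Of the 9 members that rose in gastrocnemius KO, 8 were also higher in Ctrl soleus, and Mrpl17 was the exception. Among all members 48.7% were higher in Ctrl soleus, and among all tested genes 31.4%. The same overlap among all genes that rose in gastrocnemius KO was not counted. Both comparisons are measured against the same 3 gastrocnemius Ctrl libraries, so the values are only set side by side. Mrpl41 was at 0.52 after knockout and 0.90 between muscles on the log2 scale, Mrps23 at 0.51 and 0.77, Mrpl14 at 0.29 and 1.00, and Mrpl17 at 0.44 and 0.19. Of the 4 members that fell in gastrocnemius KO, 3 also had a log2 difference below 0 between muscles, without passing. Mrpl33 was the other, at -0.35 and 0.27.

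Few genes that work with the mitochondrial ribosome passed after knockout in gastrocnemius. Of 5 subunits under other names and 20 aminoacyl-tRNA synthetase genes 0 passed, beside 14.3% of all genes. Of 27 assembly and rRNA modification genes 1 fell, and of 13 translation factors 1 rose. The fall was in Mterf3, a regulator of mitochondrial transcription and ribosome assembly, from 25.01 ± 1.20 to 18.7 ± 0.458 TPM (adjusted p = 0.0129, limma), and the rise in Mtif3, an initiation factor, from 14.2 ± 1.34 to 19.3 ± 0.732 TPM (adjusted p = 0.0222). Among 12 genes of mitochondrial DNA and transcription, Tfb2m, which opens the mitochondrial promoter, fell by 0.44 and Lrpprc, which stabilises mitochondrial mRNAs, by 0.35 on the log2 scale. Of 13 mitochondrially encoded protein genes 1 rose (mt-Atp8, 1.74) and 4 fell (mt-Nd3, mt-Nd4, mt-Co3 and mt-Atp6, -1.01 to -0.32). Of 17 alternative settings, mt-Atp6 was called in 10, mt-Co3 in 14, and mt-Nd3 and mt-Atp8 in 16 each. Exon overlap was examined for the mitochondrial ribosomal protein genes only, so reads shared among the mitochondrially encoded genes were not examined. The orphan receptor gene Esrra was the 1 of 9 regulators that rose, at 0.38 (adjusted p = 0.0495), and it was called in 3 of 17 alternative settings.

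In soleus KO, and in the test of the difference between muscles, none of these genes passed limma. Between the Ctrl muscles, 2 of the 5 subunits under other names were higher in soleus, Aurkaip1 (0.30, but -0.06 after the correction for GC content and length) and Gadd45gip1 (0.47, called in 10 of 17 alternative settings and not after median-ratio scaling or that correction). Assembly genes had 7 higher and 2 lower of 27, led by Mrm1 and Mrm3, which methylate mitochondrial rRNA (1.19 and 0.85), and translation factors 5 higher and 0 lower of 13, among them the elongation factor gene Tsfm (0.66) and Oxa1l, which inserts new proteins into the inner membrane (0.48). Synthetases had 6 higher and 0 lower of 20. Genes of mitochondrial DNA and transcription had 3 higher (Lrpprc, Tefm and Polg) and 1 lower (Tfb2m) of 12. Mitochondrially encoded protein genes had 2 higher (mt-Co1 and mt-Cytb) and 0 lower of 13. Of 17 alternative settings, Tfb2m was called in 13, mt-Co1 in 15 and mt-Cytb in 10. Of the regulators, Esrra (49.6 ± 5.39 and 106 ± 0.583 TPM) and Ppargc1a, the coactivator of mitochondrial biogenesis (9.95, 13.7 and 10.2 TPM in gastrocnemius, against 28.0, 126 and 59.0 TPM in soleus), were the 2 of 9 that were higher. These shares stand beside 31.4% of all genes higher and 10.2% lower.

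Some values carry reads that may belong to other genes, since how reads were assigned, and whether by strand, is not given. Exons of 33 members overlap those of another gene, on the opposite strand in 28 and on the same strand in 8. Tmem63b overlaps 11.2% of the exonic bases of Mrpl14 on the opposite strand, Gcfc2 36.0% of Mrpl19, and Ndufb5, itself at 517 TPM, 13.9% of Mrpl47. Mrpl53 shares 88.0% of its exonic bases with Gm42688 on the same strand. The members' transcripts were shorter than most, with a median length of 1073 against 1708 bases over all tested genes.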

How the data were processed

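Total RNA from 12 muscle libraries, 3 in each group, was sequenced after a strand-specific library preparation. The authors deposited 1 table of TPM per muscle, with the build mm10 named in the submitters' processing notes. Not given in the sources used here: which aligner, quantifier and annotation made them, and whether counting used the strand. Such TPM values hold no read depth, so no counting interval could be given, and each library sums to 1000000. Since the labels name no separate mouse per library, each p-value reflects the spread between these samples alone, which may be technical.

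Gene IDs were matched without version to GENCODE M21 (34652 matched, 214 did not). Genes whose mean over the libraries compared reached 1 TPM were tested on log2(TPM + 1) with limma 3.58.1 in R 4.3.3 (group means, moderated variance with a trend), and p-values were adjusted by Benjamini-Hochberg over all genes tested. A fold change on this scale understates the change of low genes. The difference between muscles in the knockout effect was fitted over all 12 libraries. The code was tested on simulated data.

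Alternatives were pseudocounts of 0.1 and 0.5, no filter and a filter of 5 TPM, median-ratio scaling, rescaling without mitochondrially encoded genes, robust variance, array weights, a replicate block, 1 fit of all libraries and leaving out each library. A correction for GC content and transcript length (lowess, span 0.3) was added after seeing the data. The rule for members uses gene names only, but this gene family and the gene lists were chosen with earlier results of these data known.

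Named are all called members, or where over 25 were called the 15 largest rises and 10 largest falls whose groups do not overlap. Where under 5 were called, the 5 of smallest p are named. The 6 highest and 6 lowest members and 9 members of particular roles are named too. So are up to 4 genes of smallest p per related list, but between the Ctrl muscles some of these enter the counts only. Of the genes named, mt-Nd4 was added after its values were seen, and so were the genes named only for a promoter or a read overlap.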

Additional observations from a re-analysis of the deposited data

Results flagged for a closer look

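For Mrpl14, a large-subunit protein, the knockout values lay on opposite sides of control in the 2 muscles. All 3 gastrocnemius KO libraries lay above all 3 Ctrl libraries, and all 3 soleus KO libraries lay below all 3 Ctrl libraries. The gastrocnemius difference was 0.29 (adjusted p = 0.0482, limma), and after the correction for GC content and length 0.02 (adjusted p = 0.844). The soleus difference was -0.67 and did not pass (adjusted p = 0.365). The soleus effect minus the gastrocnemius effect was -0.96 on the log2 scale, with an adjusted p of 0.0903 (limma) that misses the threshold. Over the alternatives the adjusted p ran from 0.0274 to 0.201. It passed with array weights, without soleus KO 2 and without soleus KO 3. After that correction the difference between muscles was -0.51 (adjusted p = 0.115, limma).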

How the results depend on the processing

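In gastrocnemius KO the main result was 9 members higher, 4 lower and a median of 0.04. Median-ratio scaling gave a median of 0.0061. Rescaling without mitochondrially encoded genes gave 4 higher and a median of -0.024. The fit of all libraries gave 1 higher and 0 lower, and the correction for GC content and length 1 higher, 10 lower and a median of -0.032. Leaving out 1 library gave 1 to 11 higher and 0 to 4 lower. The replicate block gave 3 higher and 0 lower there, 0 calls in soleus KO and 32 higher between the Ctrl muscles. Correlations between libraries were taken after each gene's group mean was subtracted, so they compare deviations within groups and not whole profiles. On that scale same-numbered libraries correlated by -0.16 to 0.03 in gastrocnemius and by -0.37 to -0.19 in soleus. Same-numbered Ctrl libraries of the 2 muscles correlated by 0.21, -0.13 and -0.0015, so the numbers were not taken to pair samples. Whether both muscles came from the same mice is not given, and fits across muscles treat their libraries as independent. Not every library correlated best with its own number.

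For the difference between muscles in the knockout effect the median was 0.021 after rescaling and -0.00071 after the GC and length correction. Array weights gave 1 member lower, and leaving out 1 library gave 0 to 1.

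Between the Ctrl muscles, median-ratio scaling gave 17 higher, 3 lower and a median of 0.091, and the GC and length correction 17 higher, 2 lower and a median of 0.065. Rescaling gave a median of 0.36, and leaving out 1 library 25 to 39 higher. Mrps12 came to -0.072 and -0.21, Mrps18b to -0.10 and -0.14 and Mrpl44 to -0.018 and -0.0057 under median-ratio scaling and the GC and length correction, and Aurkaip1 to -0.056 under the latter. The causes were not tested. In soleus KO 0 members were called in any setting.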

Other observations

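Some of these genes start near a neighbour on the opposite strand, and how often other genes do so was not counted. In GENCODE M21, 26 of the 78 members start head to head with another gene, with starts at most 1000 bases apart or overlapping by at most 500 bases. Mrpl46 and Mrps11, from the large and the small subunit, form the only pair of members. Their start regions overlap by 412 bases, and they share 173 exonic bases. Several partners also serve mitochondria or ribosomes. Mrps12 starts 172 bases from Sars2, which charges mitochondrial tRNA with serine, Mrpl49 starts 59 bases from Fau, which encodes a cytosolic ribosomal protein, and Mrpl36 overlaps Ndufs6, a subunit gene of respiratory complex I, by 29 bases.

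Mrpl23 had a processed copy, Mrpl23-ps1, listed far above it. Mrpl23 was at 10.8 ± 1.91 TPM in gastrocnemius Ctrl (SD, n = 3), with Mrpl23-ps1 at 176 ± 16.7 TPM, and at 9.80 ± 2.87 TPM in soleus Ctrl, with the copy at 161 ± 9.05 TPM. Over the 12 libraries Mrpl23 took 4.21% to 7.29% of their sum. Reads shared by such copies can be assigned to either, so the low place of Mrpl23 among the members is uncertain. Of 11 members with a copy that shares at least 10% of their 31-base words, it was the only one whose copy exceeded 1 TPM.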
